A study of Mus musculus with 9 samples.

Results

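Chromatin remodeler genes of autism risk, encoding subunits of the BAF complex, CHD remodelers and the protein ADNP, were read in mouse prefrontal cortex. The 10 genes are Arid1a, Arid1b, Smarca2, Smarca4, Smarcc1, Smarcc2, Chd2, Chd3, Chd8 and Adnp. They were chosen by symbol, and 10 of 10 were found among the 14444 genes of the matrix. Total RNA from 9 prefrontal cortex samples of mice aged 5 to 8 weeks was sequenced after removal of ribosomal RNA, with 3 libraries in each of 3 groups. The first group was wild type mice given saline (WT), the second was Shank3-deficient mice given saline (SAL), and the third was Shank3-deficient mice given UNC0642 (UNC), a small-molecule inhibitor of the histone methyltransferases EHMT1 and EHMT2. UNC0642 was injected into the abdomen at 1 mg/kg daily for 3 days. The labels give the mutant genotype as SHANK3, with no allele, zygosity, strain or sex, and do not say whether each library came from a separate animal, so p-values measure the spread between these libraries, which may be technical. The study asked whether blocking EHMT1 and EHMT2 changes the cortex of Shank3-deficient mice, and the comparisons were SAL against WT, UNC against SAL and UNC against WT.

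BAF complexes (the mammalian SWI/SNF family) use the energy of ATP to slide or evict nucleosomes, and so set which enhancers and promoters are open. SMARCA2 and SMARCA4 are the alternative ATPases, SMARCC1 and SMARCC2 form the scaffold on which the complex assembles, and ARID1A and ARID1B are alternative large subunits that define the canonical form of the complex. Neurons use a BAF form with subunits that replace those of neural progenitors. CHD proteins are ATPases with paired chromodomains: CHD3 is a motor of the NuRD complex, CHD8 binds promoters of active genes, and CHD2 remodels chromatin at transcribed genes. ADNP is a homeodomain protein that joins CHD4 and HP1 proteins in the ChAHP complex, which binds chromatin and limits transcription. Loss of 1 copy of ARID1B, CHD8, CHD2 or ADNP is a known cause of neurodevelopmental disorders in humans.

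Promoter sequences are shown for Chd8, the only one of the 10 genes called between SAL and WT with all libraries in the fit, and for Smarcc1 and Smarcc2, a pair of scaffold paralogues read at very different levels. RefSeq promoter sequences of build GRCm38.p6 were matched for 8 of the 10 genes. The deposited values were made on mm9, so the coordinates here belong to GRCm38 and not to the files. Each line gives the 250 bases before the transcription start, with searched motifs in capitals.
Chd8: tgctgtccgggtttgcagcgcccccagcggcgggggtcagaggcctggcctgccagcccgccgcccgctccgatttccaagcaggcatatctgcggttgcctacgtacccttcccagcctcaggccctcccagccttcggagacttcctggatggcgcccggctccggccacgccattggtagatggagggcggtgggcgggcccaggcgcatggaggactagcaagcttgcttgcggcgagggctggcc
Smarcc1: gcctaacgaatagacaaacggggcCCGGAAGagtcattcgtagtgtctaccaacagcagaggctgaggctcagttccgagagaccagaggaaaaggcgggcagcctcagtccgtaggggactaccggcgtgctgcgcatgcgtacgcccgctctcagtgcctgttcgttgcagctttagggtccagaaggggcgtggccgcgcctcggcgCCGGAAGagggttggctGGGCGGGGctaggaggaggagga
Smarcc2: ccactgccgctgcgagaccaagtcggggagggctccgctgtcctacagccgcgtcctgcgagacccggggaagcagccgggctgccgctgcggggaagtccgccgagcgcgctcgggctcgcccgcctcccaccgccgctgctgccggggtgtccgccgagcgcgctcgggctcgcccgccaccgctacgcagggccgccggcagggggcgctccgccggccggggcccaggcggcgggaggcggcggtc
The Chd8 sequence lies at chr14:52257761-52258010 on the minus strand. The Smarcc1 sequence lies at chr9:110131774-110132023 and the Smarcc2 sequence at chr10:128458986-128459235, both on the plus strand. Smarcc1 held 2 copies of the ETS letters CCGGAAG and 1 of the SP1 letters GGGCGGGG, without overlap. Chd8 and Smarcc2 held none of the 6 motifs searched on both strands. Of the 8 promoters, 2 held the ETS letters (Smarca2 and Smarcc1), against 7.05% of 27025 genes. The NRF1 motif (GCGCA, any base, then GCGC) was found in 1 (Smarca4), against 3.86%, and the SP1 letters in 2 (Adnp and Smarcc1), against 16.3%. None of the 8 held the YY1 letters AAGATGGCG (0.607% of genes), the CRE letters TGACGTCA (1.62%) or the E-box CACGTG (6.05%). GC content ran from 61.2% to 80.8% in the 8 promoters, and the median over all genes was 52.0%.

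The deposited values are a signal per gene scaled by library total, and the authors named them CPM. They were not plain CPM: for every gene the mean log2 value was made equal between 2 sets of libraries, the WT libraries with UNC replicates 2 and 3, and the SAL libraries with UNC replicate 1. No label mentions this step. Whole reads were recovered from the values for 14444 of 14444 genes, within 0.02 reads, and came to 12035098 to 16165483 reads per library. Levels are given below both as deposited and as recovered reads per 1000000 recovered reads of the library (RPM). These totals cover the 14444 genes alone, not reads outside them. In the recovered reads the first principal component carried 53.1% of the variance and separated the 3 WT libraries and UNC replicate 3 from the other 5 mutant libraries, a split called the division here. Genotype and division therefore differ in 1 library alone. Shank3 was read at 308, 315 and 355 in WT, at 333, 343.5 and 318 in SAL and at 288, 303 and 322.5 in UNC on the deposited scale. Its SAL minus WT log2 difference there was 0.03 (SE 0.08), on a scale where the equalising fixes this difference by the UNC and WT libraries. In the recovered reads it was 0.07 (SE 0.08, limma-voom adjusted p = 0.567). With the division as a term it was 0.18 (SE 0.13, limma-voom adjusted p = 0.977). Shank3 was called in none of these fits. A total over the gene checks the label only if the allele removes transcribed sequence, which the labels do not state. Excitatory neuron markers were at 1932 to 2547 summed RPM in all 9 libraries, and none of the marker lists was at 0.

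Per kilobase of exon, the 10 genes lay at very different levels in WT cortex. Chd3 was highest at 106 ± 10.1 RPM per kb (SD, n = 3), above 97.8% of the 13895 genes with a length. Smarcc2 followed at 58.5 ± 1.9, well above its paralogue Smarcc1 at 10.6 ± 0.27. The ATPases were close to each other, Smarca2 at 26.8 ± 1.06 and Smarca4 at 25.4 ± 1.55, and their libraries overlapped. Of the ARID subunits, Arid1a lay at 12.4 ± 0.664 and Arid1b at 7.25 ± 0.378, which did not overlap. Chd8 at 7.61 ± 0.695 overlapped with Arid1b, and Chd2 was lower at 5.18 ± 0.406. Adnp was lowest at 0.415 ± 0.246, above 5.12% of genes, and its level is uncertain because its exons are shared with another gene. Lengths are from GENCODE M21, which may differ from the annotation the authors counted on.

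Adnp rests on 14 to 46 recovered reads per library and is uncertain. In GENCODE M21, 82.1% of its exon bases are shared on the same strand with Gm20716, a gene not analysed here, and the authors' way of counting shared reads is not given in the sources used here. Chd2 shares 18.4% of its exon bases on the same strand with 1810026B05Rik. For the other 8 genes at most 1.53% of exon bases were shared on the same strand, and 5.77% of Chd8 lay opposite Gm26590, an antisense overlap. The other 9 genes had between 757 and 16378 recovered reads in each library.

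**Figure D1:**
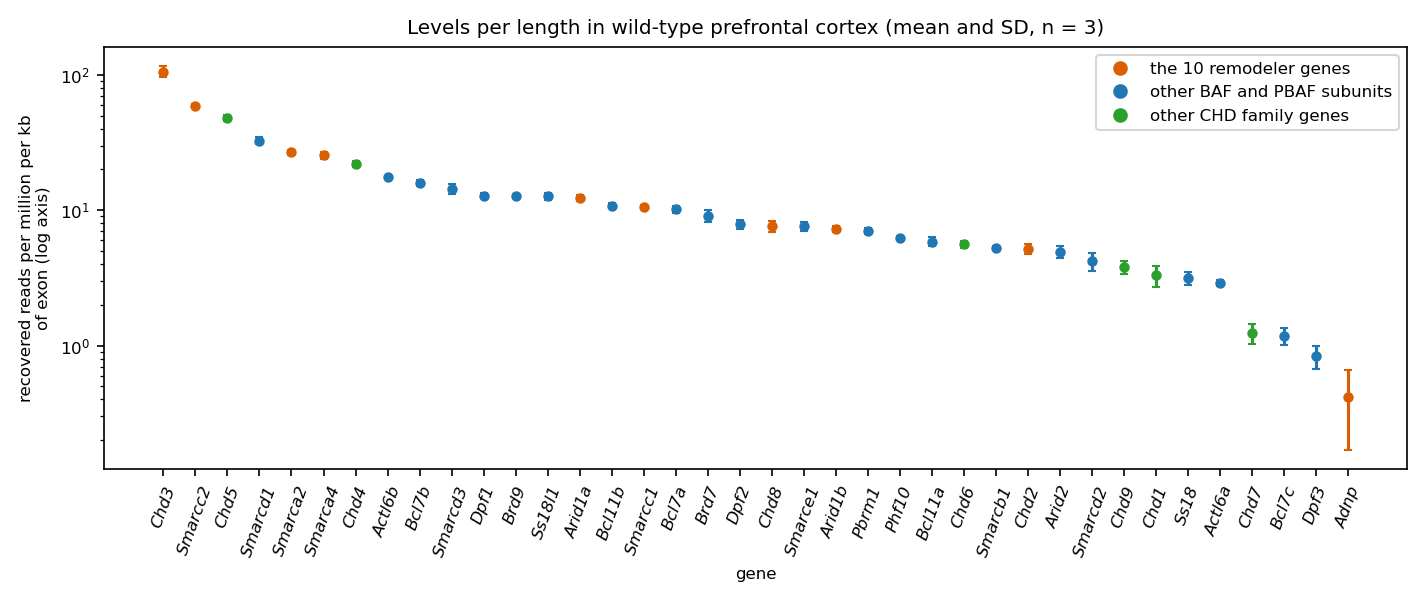
Mean RPM per kb of exon in the 3 WT libraries (log axis, bars are SD) for the 10 remodeler genes, the other BAF and PBAF subunits and the other CHD genes. Chd3 is the highest at 106 and Adnp the lowest at 0.415.

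The subunits that mark the neuronal form of BAF were also read. Actl6b, the actin-related subunit of neurons, was at 17.6 ± 0.454 RPM per kb in WT (SD, n = 3), and its progenitor counterpart Actl6a at 2.89 ± 0.134. Ss18l1, the neuronal transactivator subunit, was at 12.7 ± 0.67 and its counterpart Ss18 at 3.15 ± 0.345. Dpf1, a neuronal double PHD finger subunit, was at 12.8 ± 0.546, and its counterpart Phf10 at 6.22 ± 0.174. For each of these 3 pairs the neuronal member was the higher per length. The pairs leave out Dpf2, which is counted among the progenitor variants below, so they do not cover every possible counterpart. Dpf3, also a neuronal subunit, was read at only 0.832 ± 0.165, below Phf10, so a pairing of these 2 would go the other way. Among other CHD genes, Chd5, a NuRD motor of neurons, was at 47.8 ± 2.38, Chd4, the broad NuRD motor and ADNP partner, at 21.8 ± 1.16, and Chd7 at 1.24 ± 0.214.

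Between SAL and WT, none of the 10 genes was called in the deposited values at an adjusted p under 0.05, and neither was any other gene (0% of 14444, limma; 19 genes had an unadjusted p under 0.05). The differences of the members on the log2(value + 0.5) scale ran from -0.11 for Chd8 to 0.08 for Chd3, with 7 of 10 negative and a median of -0.04. Over all genes the median was 0.00 and 48.7% were negative. By the equalising of the 2 sets, the deposited SAL minus WT difference of each gene follows from the UNC and WT libraries. The largest departure from this was 3.3e-09 on the log2 scale. The lack of calls on this scale therefore does not show that SAL and WT were alike. In the recovered reads, which lack the adjustment, Chd8 was called lower in the same libraries. Its log2 difference was -0.45 (SE 0.10, limma-voom adjusted p = 0.0209), and it was the 1 member called among 10, where 11.9% of all genes were called, 741 (5.13%) higher and 984 (6.81%) lower. The share of members called is near that of all genes.

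Chd8 read 119.7, 118 and 139 RPM in WT, 92.7, 95.3 and 86.9 in SAL, and 92.4, 95.6 and 114 in UNC. Every WT library was above every mutant library, as for 5.58% of all genes, and the highest mutant value was UNC replicate 3. The deposited values of Chd8 were 109, 106 and 121 in WT, 105, 108 and 98.7 in SAL, and 104, 85.0 and 101 in UNC, so that WT and SAL overlapped. Before the adjustment Chd8 differed by 0.33 on the log2 scale between the adjusted sets, higher in the set with WT, and 19.9% of genes had a larger difference; the median size over all genes was 0.17. Adding the division as a term, the SAL minus WT difference of Chd8 was -0.18 (SE 0.13, limma-voom adjusted p = 0.977), and no gene was called (0%, 711 genes at an unadjusted p under 0.05). Here and below, this fit tells genotype from the division through UNC replicate 3 alone, and the division was drawn from the same reads. The lack of calls under this term therefore does not show that SAL and WT were alike. Without the division term, the call was lost on leaving out WT replicate 2 or 3 or any of the 3 SAL libraries, with differences between -0.49 and -0.38 and adjusted p-values between 0.0537 and 0.0979. The count of all genes called moved with it, from 13 without WT replicate 2 and 17 without SAL replicate 1 or 3, to 96 without SAL replicate 2, 363 without WT replicate 3 and 3550 without UNC replicate 3.

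Arid1a and Arid1b stood apart in the same way without passing the threshold. Arid1a read 139, 136 and 151 RPM in WT, 125, 117 and 122 in SAL, and 115, 109.9 and 132 in UNC. Arid1b read 86.8, 91.0 and 96.3 in WT, 80.8, 75.1 and 74.4 in SAL, and 74.5, 72.4 and 79.3 in UNC. For both ARID subunits all 3 WT libraries were above all 6 mutant libraries. With Chd8 these were the 3 members so separated, where 5.58% of genes were, and no member had all 6 mutant libraries above WT, where 6.76% did. The SAL minus WT differences in recovered reads were -0.23 for Arid1a (SE 0.08, limma-voom adjusted p = 0.0844) and -0.25 for Arid1b (SE 0.08, adjusted p = 0.0515). Without UNC replicate 3 both were called, at limma-voom adjusted p = 0.0229 and 0.0179, in a fit that called 3550 of 14444 genes. UNC replicate 3 is not part of this comparison, and the differences stayed at -0.23 and -0.25. Under the division term Arid1a was at 0.00 (SE 0.12) and Arid1b at -0.14 (SE 0.12), neither called. On the deposited scale the differences were -0.08 and -0.10 (SE 0.08 each), and the groups overlapped.

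Neither scaffold subunit was called between SAL and WT. Smarcc1 read 85.0, 80.9 and 83.8 RPM in WT, 79.4, 75.5 and 70.3 in SAL, and 68.8, 67.1 and 81.2 in UNC. Every SAL library lay below every WT library, but the difference was not called (-0.15, SE 0.09, limma-voom adjusted p = 0.252). Smarcc2 read 326, 314 and 335 in WT, 319, 325 and 322 in SAL, and 303, 300.6 and 330.4 in UNC. All SAL values of Smarcc2 lay within the WT range, at a difference of -0.01 (SE 0.07, adjusted p = 0.916).

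The ATPases overlapped between SAL and WT. Smarca2 read 383, 368 and 398 RPM in WT, 378, 391 and 331 in SAL, and 329.9, 330.5 and 415 in UNC. Smarca4 read 161, 175 and 156 in WT, 153, 167 and 152 in SAL, and 144, 149 and 159 in UNC. Their SAL minus WT differences in recovered reads were -0.07 (SE 0.10) and -0.06 (SE 0.08), at limma-voom adjusted p = 0.659 and 0.608. Under the division term Smarca2 was at 0.26 (SE 0.12) and Smarca4 at 0.06 (SE 0.12), neither called.

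**Figure D2:**
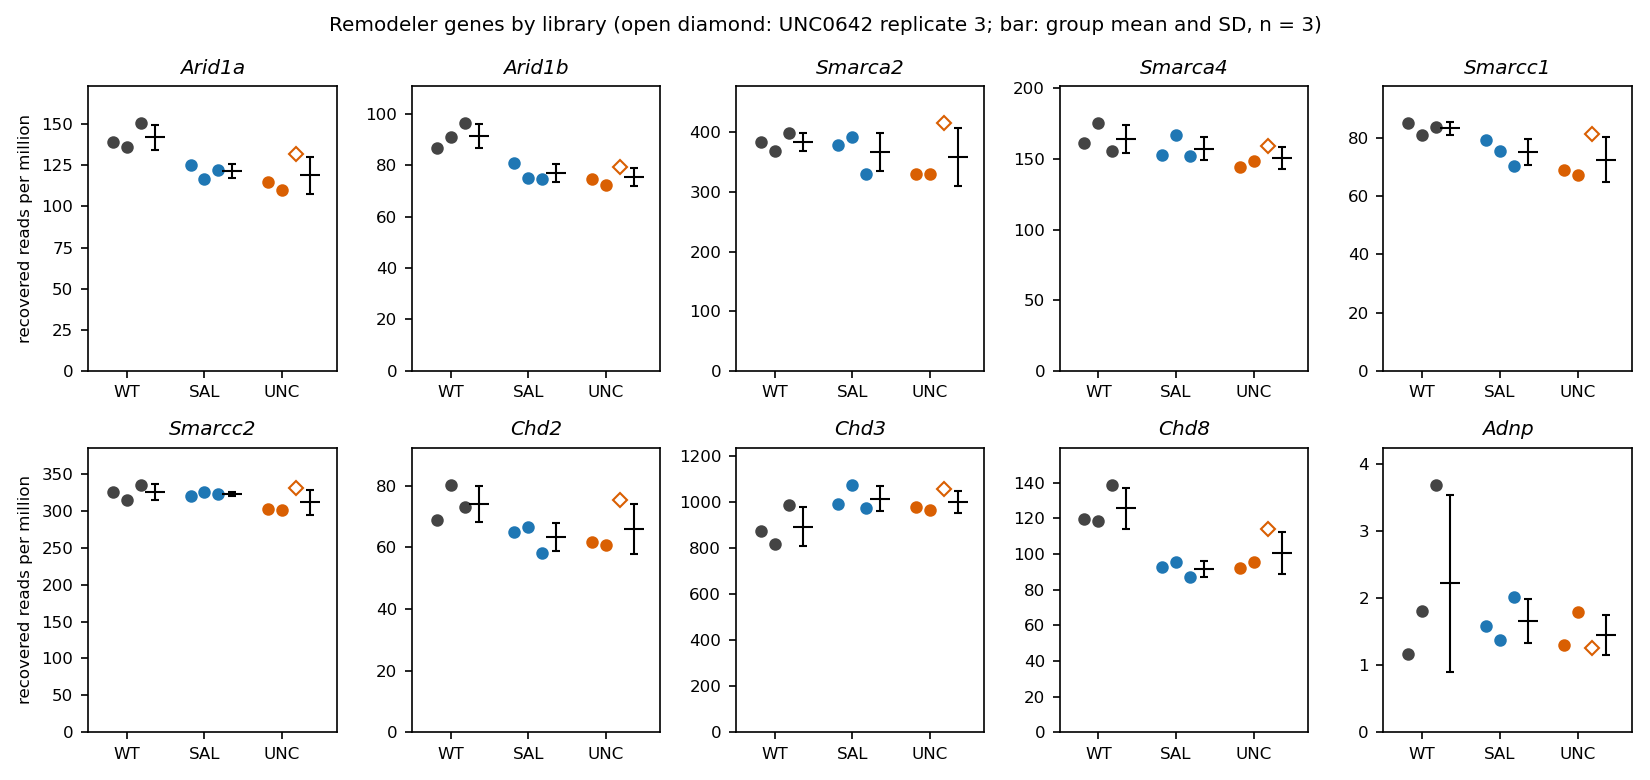
RPM of each gene in the 9 libraries, with the group mean and SD (n = 3); the open diamond is UNC replicate 3. For Arid1a, Arid1b and Chd8 every WT library is above every mutant library, as for 5.58% of all genes, and UNC replicate 3 is the highest UNC library for 9 of the 10 genes.

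Chd2 read 68.9, 80.3 and 73.0 RPM in WT, 64.9, 66.7 and 58.2 in SAL, and 61.9, 60.8 and 75.2 in UNC. SAL lay wholly below WT, while UNC replicate 3 was as high as WT; the SAL difference was -0.23 (SE 0.10, limma-voom adjusted p = 0.141). Chd3 was the member that went the other way. It read 873, 819 and 986 in WT, 991, 1076 and 975 in SAL, and 979, 965 and 1056 in UNC. WT replicate 3 fell among the mutant libraries, so the groups overlapped, and the SAL difference was 0.19 (SE 0.08, adjusted p = 0.128). Scaled on the authors' effective totals in place of the read totals, all 3 SAL libraries of Chd3 were above all WT libraries, as for 20.8% of genes. Under the division term Chd3 was at 0.31 (SE 0.13, adjusted p = 0.972), and without WT replicate 3 in that fit it was called higher, at 0.38 (adjusted p = 0.047). That 1 library also moved the count of all genes called in that fit from 0 to 120.

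Adnp read 1.16, 1.81 and 3.70 RPM in WT, 1.59, 1.38 and 2.02 in SAL, and 1.31, 1.79 and 1.25 in UNC. WT replicate 3 was far above the rest, and WT spanned all other libraries. The SAL minus WT difference was -0.28 with an SE of 0.39 (limma-voom adjusted p = 0.651), and its sign turned to 0.16 without WT replicate 3.

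In all, 5 members (Arid1a, Arid1b, Smarcc1, Chd2 and Chd8) had every SAL library below every WT library in RPM, where 20.5% of all genes did. None had every SAL library above, where 20.2% did. In the deposited values no member was separated in either direction (1.7% of genes lower, 1.73% higher). The equalising of the 2 sets also carries changes from one comparison into another. A change of 1 log2 unit present in SAL alone would appear in the deposited values as 0.25 in SAL minus WT, -0.5 in UNC minus SAL and -0.25 in UNC minus WT. One present in all mutant libraries alike would appear as 0.40, 0.4 and 0.80, so that it would also be read between UNC and SAL.

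**Figure D3:**
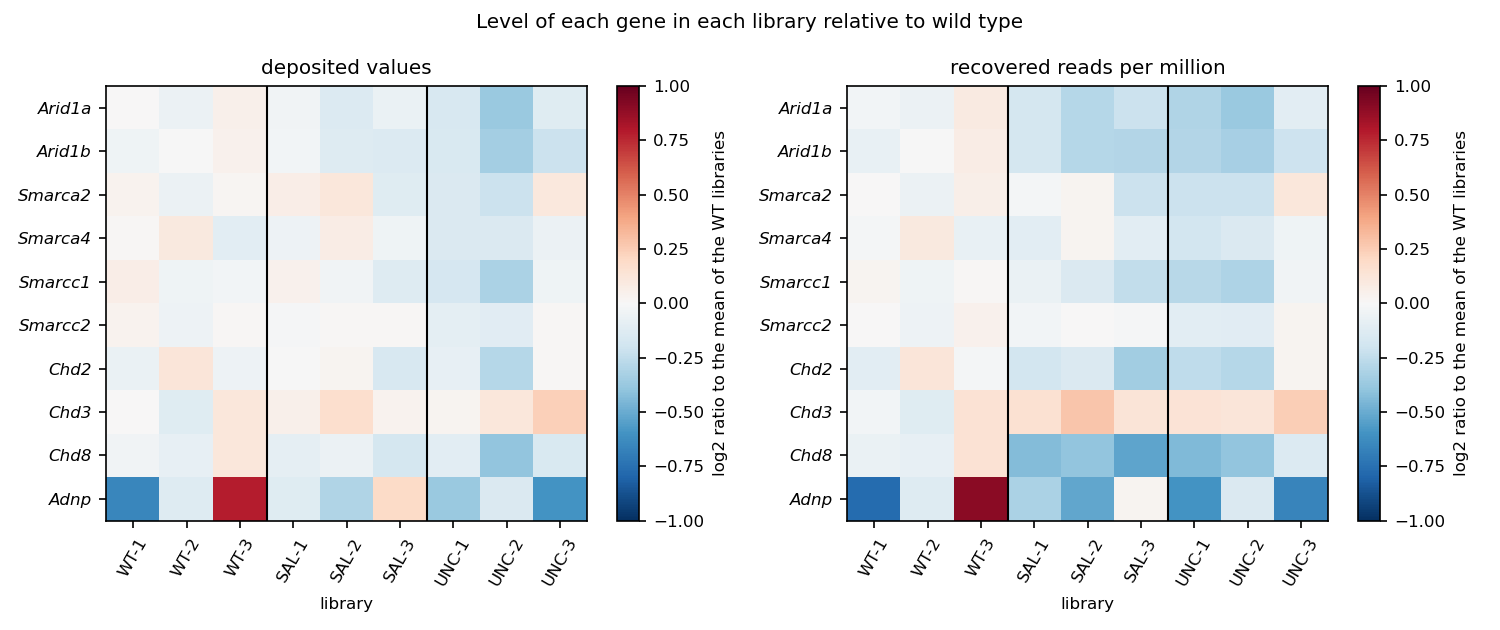
Log2 ratio of each gene in each library to the mean of the WT libraries, in the deposited values (left) and in RPM (right). On the right, Arid1a, Arid1b, Smarcc1 and Chd8 lie below 0 in all 6 mutant libraries. Adnp varies most among the WT libraries.

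Measures of RNA composition also differed between SAL and WT. The 9 nuclear-retained long RNAs summed to 7005 to 10292 RPM in WT, 6091 to 6709 in SAL and 6503 to 7986 in UNC. In recovered reads, 9 of 9 were lower in SAL than in WT (median log2 difference -0.63, 4 called lower), while 30 of 30 cytosolic ribosomal protein genes were higher (median 0.28, 19 called). Endothelial markers summed to 158 to 205 RPM in WT and 116 to 147 in SAL (5 of 5 lower, 1 called), without overlap. Excitatory neuron markers summed to 1932 to 2412 in WT and 2422 to 2528 in SAL (6 of 9 higher, none called), also without overlap. Striatal markers summed to 114 to 134 in WT and 92.1 to 108 in SAL (4 of 5 lower, none called), again without overlap. Oligodendrocyte markers summed to 2707 to 4532 in WT and 1374 to 3219 in SAL (6 of 6 lower, none called), and precursor markers to 299 to 438 and 264 to 313 (5 of 5 lower, 1 called). Astrocyte markers (6 of 7 lower), microglia markers (5 of 6 lower), meningeal fibroblast markers (8 of 8 higher) and interneuron markers (4 of 7 higher, 1 called in each direction) overlapped in their sums, and no gene of the first 3 lists was called. In these sums the UNC libraries did not all follow the division. UNC replicate 3 lay within the WT range for nuclear-retained RNAs (7986) and excitatory neuron markers (2116). It lay below every WT library for endothelial (151) and striatal (101) markers. Oligodendrocyte markers were highest in UNC replicate 2, at 4552, with UNC replicate 3 at 3392. The part of these composition differences in the values of the remodeler genes was not tested. In bulk tissue, fewer cells of a type and less RNA per cell cannot be told apart.

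Other remodeler genes gave the following counts for SAL against WT in recovered reads, where the median of the 10 members was -0.19 and that of all genes -0.01, and where 5.13% of all genes were called higher and 6.81% lower. Of 22 other BAF and PBAF subunits measured, 2 were called higher and 4 lower, with a median of -0.04. Bcl11b, a zinc finger subunit of BAF and a regulator of deep-layer neurons, fell by 0.61 (SE 0.08, limma-voom adjusted p = 0.0041). Arid2, the ARID subunit of the PBAF form, fell by 0.60 (SE 0.12), and Dpf2, a double PHD finger subunit, fell by 0.36 (SE 0.09), while the core subunit Smarcb1 rose by 0.33 (SE 0.09). The other gene called higher was Smarce1, also a core subunit, and the other called lower was Phf10, both outside the rule for named genes here and picked after their values were seen. None of the 4 neuronal BAF variants was called (median -0.04), and 2 of the 4 progenitor variants, Dpf2 and Phf10, were called lower (median -0.34).

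Of the 6 other CHD genes, 3 were called lower and none higher (median -0.33), where 6.81% of all genes were called lower. Chd9 fell by 0.68 (SE 0.12, limma-voom adjusted p = 0.0159), Chd6 fell by 0.30 (SE 0.09, adjusted p = 0.0497), and Chd7, a remodeler at enhancers, fell by 1.08 (SE 0.28, adjusted p = 0.033). None of 12 NuRD subunits other than CHD proteins was called (median 0.06), with Hdac2, a NuRD deacetylase, at 0.26 (SE 0.09, adjusted p = 0.072). Of 20 ISWI, INO80 and other remodelers, 6 were called lower (median -0.28), among them the ISWI partners Baz1a, which fell by 1.28 (SE 0.31), and Rsf1, which fell by 0.44 (SE 0.11). None of the 6 genes listed as ADNP partners or paralogue was called (median -0.10). Of 35 other autism risk genes measured, 6 were called lower (median -0.25), among them the histone methyltransferase genes Kmt2a, which fell by 0.70 (SE 0.14), Kmt2c, which fell by 0.67 (SE 0.14), and Ash1l, which fell by 0.44 (SE 0.09). With the division as a term, and in the deposited values, none of these genes was called, and the calls come from the fit whose count ran from 13 to 3550 genes as single libraries were left out.

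Between UNC and SAL, none of the 10 members and no other gene was called in the deposited values (0%, limma; 281 genes at an unadjusted p under 0.05, none of them a member). The deposited differences were negative for 9 of 10 members, against 49.0% of all genes, with a median of -0.11 against 0.00. In the recovered reads 8 of 10 members were negative, with a median of -0.03. With the division as a term 9 of 10 were negative, with a median of -0.08. As stated above, a change in all mutant libraries, or in SAL alone, would each appear in part in this deposited difference. How far either holds for the members was not tested. The deposited differences ran from -0.23 for Adnp (SE 0.27) and -0.14 for Arid1a, Arid1b and Smarcc1 (SE 0.08, 0.08 and 0.09) to 0.04 for Chd3 (SE 0.09). Deposited Arid1b was at 85.6, 79.5 and 79.2 in SAL and at 78.4, 68.8 and 75.1 in UNC, and deposited Smarca4 at 156, 170.4 and 157 in SAL and at 146, 146 and 155 in UNC. For both, every UNC library was below every SAL library, as for 3.06% of genes, and no member had the reverse (3.17% of genes). In RPM the groups overlapped for both.

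The recovered reads of the 3 UNC libraries did not lie together. UNC replicate 3 was above both other UNC libraries for 9 members, all but Adnp, where 41.3% of genes had it highest. It lay within the WT range for 5 members, where 58.1% of genes did. With all 3 UNC libraries, no member was separated from SAL in RPM (3.89% of genes lower, 5.8% higher). The differences then were small, from -0.18 for Adnp (SE 0.41) to 0.13 for Chd8 (SE 0.10), with a median of -0.03, and none was called (0% of genes, limma-voom; 536 at an unadjusted p under 0.05).

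The division puts the 3 SAL libraries and UNC replicates 1 and 2 on 1 side. In the fit of these 5 libraries, 9 of 10 members were lower in UNC than in SAL, where 44.6% of genes were. This side, drawn from the same reads, leaves out UNC replicate 3, the highest UNC library for 9 members. Leaving it out lowers the UNC level of those members by construction, so the counts here are no separate test of UNC0642. The median was -0.08 against 0.02 over all genes. In the same fit the differences of 7 of 7 astrocyte markers (median -0.13) and 7 of 7 interneuron markers (median -0.09) were negative and those of 6 of 6 oligodendrocyte markers positive (median 0.53), none of them called. Their summed levels overlapped, with astrocyte markers at 1231 to 1345 RPM in SAL and at 1120 and 1244 in the 2 UNC libraries, interneuron markers at 871 to 932 against 864 and 872, and oligodendrocyte markers at 1374 to 3219 against 2361 and 4552. The part of these markers in the values of the remodeler genes was not tested. Smarca2 had the lowest p of the members, at -0.15 (SE 0.07, limma-voom unadjusted p = 0.0463, adjusted p = 0.834). Smarcc1 was at -0.14 (SE 0.08), Arid1a at -0.11 (SE 0.06), Smarca4 at -0.10 (SE 0.06) and Smarcc2 at -0.10 (SE 0.05). Chd8 was at 0.04 (SE 0.07). None of the 10 was called, and neither was any other gene (0%; 853 genes, or 5.91%, had an unadjusted p under 0.05). For 5 members (Arid1a, Smarca2, Smarca4, Smarcc1 and Smarcc2), both UNC libraries were below all 3 SAL libraries, as for 9.53% of genes, and for none were both above (12.8%). For Smarca2 the margin was from 330.5 to 330.6 RPM.

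**Figure D4:**
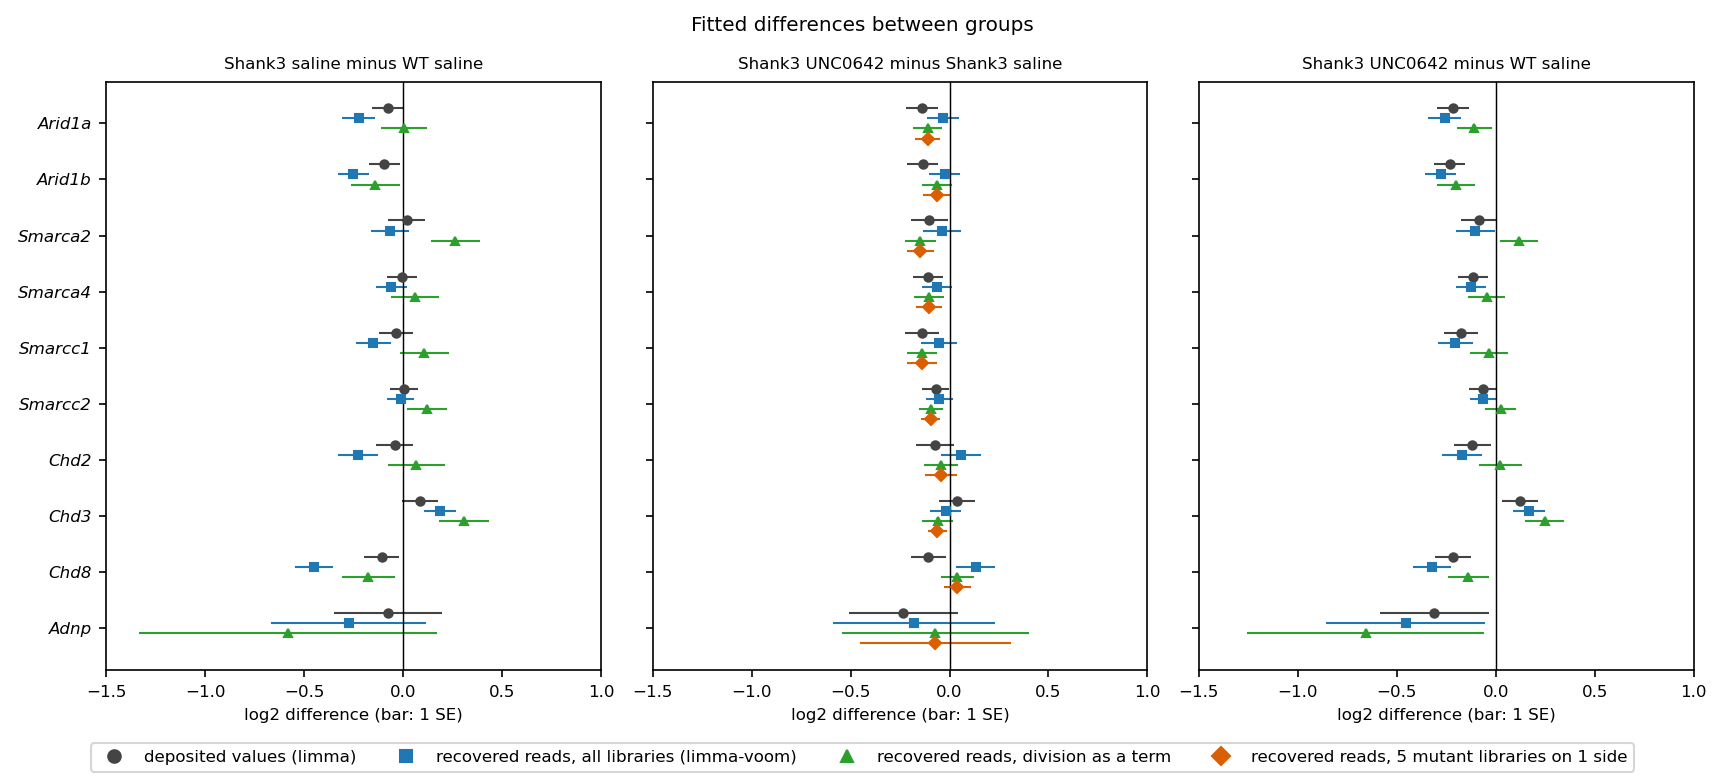
Log2 differences of the 10 genes in the 3 comparisons (bars are 1 SE), from the deposited values, from the recovered reads of all libraries, from these with the division as a term, and from the 5 mutant libraries on 1 side of it. In SAL minus WT Chd8 lies at -0.11, -0.45 and -0.18 in the first 3 analyses, and in UNC minus SAL at -0.11, 0.13, 0.04 and 0.04 in the 4.

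Between UNC and WT, no gene was called in the deposited values (0%, limma; 1238 genes at an unadjusted p under 0.05). This comparison shares its libraries with both others. Of the 10 members, 9 were negative, against 49.1% of genes, with a median of -0.15 against 0.00 on the deposited scale. At an unadjusted p under 0.05 there were 3 members, all lower, where 4.69% of genes were lower: Arid1b at -0.23 (SE 0.08, adjusted p = 0.576), Arid1a at -0.22 (SE 0.08, adjusted p = 0.576) and Chd8 at -0.22 (SE 0.09, adjusted p = 0.576). Deposited Arid1a was at 136, 129.9 and 140.4 in WT and at 121, 105 and 125 in UNC. Every UNC library was below every WT library for 4 members in the deposited values (Arid1a, Arid1b, Smarcc1 and Chd8), as for 5.84% of genes, and for 3 in RPM (Arid1a, Arid1b and Chd8), as for 7.62%. No member lay wholly above WT (5.85% and 9.84% of genes). In recovered reads the differences were -0.26 for Arid1a, -0.28 for Arid1b and -0.32 for Chd8 (SE 0.08, 0.08 and 0.10), at limma-voom adjusted p = 0.165, 0.147 and 0.15, where 8 genes in all were called (0.0554%). Under the division term they were -0.11, -0.20 and -0.14 (SE 0.09, 0.10 and 0.10), none called.

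The balance within each paralogue pair was tested over libraries, because alternative subunits can replace each other in the complex. The log2 ratio of Arid1a to Arid1b on the deposited scale was 0.63 ± 0.05 in WT, 0.65 ± 0.05 in SAL and 0.65 ± 0.07 in UNC (SD, n = 3 each). Smarca2 to Smarca4 was at 1.20 ± 0.14, 1.23 ± 0.09 and 1.24 ± 0.12. Smarcc1 to Smarcc2 was at -2.003 ± 0.03, -2.05 ± 0.09 and -2.11 ± 0.07. The groups overlapped in 8 of the 9 comparisons, the exception being Smarcc1 to Smarcc2 between UNC and WT, with a difference of -0.11 (exact two-sided permutation p = 0.1, adjusted over 9 tests p = 0.9). In RPM this ratio was lower in every SAL and every UNC library than in every WT library, by -0.14 in each case (exact permutation p = 0.1, adjusted p = 0.45). With 3 libraries against 3 the smallest possible p is 0.1, so these ratios could not pass the threshold.

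Across the 9 libraries the members did not all vary together, which is given as a description, since the libraries share groups and the division. The correlation of a member with the mean of the other members in recovered reads was highest for Arid1a (r = 0.885), Arid1b (r = 0.881) and Chd8 (r = 0.846). It was lower for Smarcc1 (0.773), Smarcc2 (0.724), Chd2 (0.693), Smarca2 (0.664) and Smarca4 (0.435), and lowest for Adnp (0.300) and Chd3 (-0.261). Outside the set, the genes whose deposited values over the 9 libraries were most like the mean of the members were Tbc1d9b (r = 0.988), Hip1 (0.981), Gon4l (0.980), Slco2b1 (0.979) and Fgfr2 (0.979), picked from 14444 genes for that likeness.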

How the data were processed

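Libraries were prepared from Trizol-extracted total RNA with a stranded kit that removes ribosomal RNA (per the labels' protocols). The submitters' processing notes list cutadapt, TopHat2, HTSeq and the mm9 build; for tool versions, annotation, strand setting and normalization, nothing is given in the sources used here. Per gene, the deposited signal, named CPM by the authors, sums to 975390 to 1028773 per library and is never 0.

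Of the 255 ways to divide the libraries, 1 makes the mean log2 value of each gene the same on both sides, with departures of at most 2.5e-09. For each gene the shift at which all 9 values became whole reads was solved, with a prior of 3.0 reads on average removed; 100% of values were whole within 0.02 reads, and values rebuilt from the reads differed by at most 1.3e-08 on the log2 scale. The recovered reads came to 12035098 to 16165483 per library.

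The deposited values were tested as log2(value + 0.5) with limma 3.58.1 in R 4.3.3, with an intensity trend, all 9 libraries and Benjamini-Hochberg adjustment over 14444 genes, called at an adjusted p under 0.05; a log2 difference on this scale understates the change of low genes. The recovered reads were tested with limma-voom by group, with the division as a term, and within the 5 mutant libraries on 1 side. Paralogue ratios were compared by exact permutation with scipy 1.17.1. The fits were also run on simulated reads without the division or the equalising of sets. That run therefore does not show how the fits behave on data with these features.

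Each result was recomputed with another pseudocount (0.1 or 2), a filter on low values, other scaling, 2 groups alone, a replicate block and each library left out. Fits of the recovered reads with a replicate block, and leaving out libraries, rescaling or filtering in the group-only fit of those reads, were chosen after seeing the data. The members and the gene lists were chosen with earlier results of these data known. Named genes were the 10 members, up to 4 genes of smallest p in each list, and the 5 genes most correlated with the members. The lists were measured except for Bicra, Bicral, Scn2a, Kmt5b and Gpr6. Gene symbols matched GENCODE M21 for 13895 of 14444 genes.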

Additional observations from a re-analysis of the deposited data

How the results depend on the processing

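For SAL minus WT, no gene was called in the deposited values, where this difference is fixed by the UNC and WT libraries. Comparing the 2 groups alone called 5 genes, none a member. In limma-voom on the recovered reads 1725 were called, 1 of them a member (Chd8), with a median member difference of -0.19 in place of -0.041, and Smarca2 (-0.066) and Smarcc2 (-0.012) turned. Under the division term the median was 0.062, and Arid1a (0.0025), Smarca4 (0.058), Smarcc1 (0.11) and Chd2 (0.067) turned. For UNC minus SAL the recovered reads gave a median of -0.035 and turned Chd2 (0.057), Chd3 (-0.020) and Chd8 (0.13); the division term turned Chd3 (-0.060) and Chd8 (0.038). For UNC minus WT the recovered reads called 8 genes and the division term 3, none of them members, the latter with a median of -0.040 and with Smarca2 (0.12), Smarcc2 (0.024) and Chd2 (0.023) turned. The SAL minus WT difference in the ratio of Smarca2 to Smarca4 turned to -0.0060 in recovered reads. At an adjusted p under 0.1 the group-only fit called 3397 genes. The cause of these shifts was not tested.

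Over deposited values and recovered reads, same-numbered libraries had correlations of deviations of -0.19 to 0.31, and differently numbered libraries of -0.26 to 0.27. The ranges overlap, so no pairing by replicate number was seen, but it is not excluded. Taking the replicate number as a block, the deposited values gave 0 genes in all 3 comparisons. In the recovered reads the block gave 2442 genes and 1 member for SAL minus WT (median -0.19, Smarca2 -0.067, Smarcc2 -0.012). It gave a median of -0.034 for UNC minus SAL with Chd2 at 0.057, Chd3 at -0.020 and Chd8 at 0.13, and 36 genes for UNC minus WT. Block and division together called 3 genes and put Arid1a at -0.071.

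Leaving out 1 library at a time, the genes called ran from 0 to 4 for UNC minus WT, from 0 to 120 under the division term, from 0 to 2 on 1 side of it and from 13 to 3550 in the group-only fit. Members that turned in SAL minus WT ran from -0.030 to 0.087 (Smarca2), -0.060 to 0.042 (Smarca4), -0.079 to 0.0045 (Smarcc1), -0.019 to 0.023 (Smarcc2), -0.081 to 0.016 (Chd2) and -0.34 to 0.25 (Adnp). In UNC minus SAL Chd2 ran from -0.14 to 0.0091 and Chd3 from -0.016 to 0.089, and in UNC minus WT Adnp from -0.57 to 0.013. On 1 side of the division Adnp ran from -0.31 to 0.12, and under the division term Arid1a from -0.032 to 0.046. In the group-only fit Smarca2 ran from -0.12 to 0.0062, Smarcc2 from -0.036 to 0.010 and Adnp from -0.63 to 0.16. The ratio of Arid1a to Arid1b ran from -0.0079 to 0.043 in SAL minus WT, -0.044 to 0.022 in UNC minus SAL and -0.024 to 0.041 in UNC minus WT. That of Smarca2 to Smarca4 ran from -0.053 to 0.088, -0.058 to 0.058 and -0.046 to 0.095, and that of Smarcc1 to Smarcc2 in SAL minus WT from -0.090 to 0.0024. The fit with a division term could not be run without UNC replicate 3, since genotype and division are then the same. Adnp rests on 14 to 46 reads per library, which limits what its differences can show.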
